A study of Mus musculus with 8 samples.

Results

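Dense clusters of Smad4 binding sites were described in mouse CD4+ T cells, as runs of at least 4 neighbouring regions that carried a called Smad4 peak in both wild-type (WT) libraries and in neither Smad4 knockout (KO) library. The regions were chosen by measured values, namely the positions of called peaks: overlapping WT peaks (1 bp or more) were merged, merged regions with a peak of both WT lists and no KO peak were kept, and autosomal regions close to each other were joined into chains. The largest gap joined was 12.498 kb, and the smallest left unjoined was 12.503 kb. This gave 3024 regions in 569 chains, which is 19.3% of the 15635 autosomal WT-only regions. Their number, spacing and lack of KO peaks follow from the rule and are a description. Regions were not replicates of a condition, and no test was made on them.

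The data were chromatin immunoprecipitation and sequencing (ChIP-seq) with a Smad4 antibody, and the study asked where Smad4 bound in cells under conditions that bear on Th17 differentiation. The cells, CD4+ T cells of spleen and lymph nodes, were activated and cultured for 12 h with interleukin 6 (IL-6) plus a TGF-β receptor inhibitor, a treatment that all libraries shared. Of 8 samples, 2 were WT ChIP libraries on C57BL/6 from females, and 2 were KO ChIP libraries of genotype CD4cre;Smad4fl/fl, replicate 1 from pooled male and female animals and replicate 2 from a male; 4 input samples were not analysed here. In the KO the Cd4 promoter drives Cre, which deletes floxed Smad4 in T cells. Sex and genotype were not separated, and the labels do not say that replicates were separate animals. The peak lists held 27120 peaks for WT replicate 1, 19792 for WT replicate 2, 564 for KO replicate 1 and 424 for KO replicate 2. Each list gave positions alone, without a height or a score, and read depth is unknown, so a region counted as WT-only was one in which no KO peak was called. In bulk chromatin, binding in more of the cells and more binding per cell cannot be told apart.

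Smad4 is the SMAD protein shared by the TGF-β and BMP branches: receptor-activated SMADs pair with it, enter the nucleus and bind short DNA elements, mostly together with other transcription factors. SKI and SKIL are co-repressors that bind SMAD complexes and are removed on TGF-β signalling. In T cells, stretches of DNA with many closely spaced factor binding sites often lie at genes of cell identity and signalling, where they are known as clustered or super-enhancers. Some SMAD proteins are also known to associate with the processing of some microRNA precursors, which was not examined here for Smad4.

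Promoters under the chains are shown because they are the piece of each chain for which letters could be read here. RefSeq (GRCm38.p6, the same assembly as mm10) supplied 300 bases per start, 250 before and 50 after it, and had an entry for 645 of the 817 autosomal protein-coding genes with a chain region in the gene or within 10 kb. The 6 promoters below lie at starts covered by a chain region at genes of T cell signalling and identity. Sequences run 5′ to 3′ along the gene. Capitals mark the SMAD core GTCTG or its complement CAGAC, the ETS core GGAAGT or ACTTCC, the GC box GGGCGG or CCGCCC, and the GC-rich SMAD site GGCGCC.
Prkcq, chr2:11172132-11172431, plus strand: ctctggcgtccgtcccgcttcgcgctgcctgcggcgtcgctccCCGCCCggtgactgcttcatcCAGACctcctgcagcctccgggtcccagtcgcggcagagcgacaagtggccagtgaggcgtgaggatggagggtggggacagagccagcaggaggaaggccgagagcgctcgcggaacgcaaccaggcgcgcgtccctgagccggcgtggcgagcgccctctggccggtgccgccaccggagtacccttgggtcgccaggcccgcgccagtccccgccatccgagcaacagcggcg
Bcl11b, chr12:108003365-108003664, minus strand: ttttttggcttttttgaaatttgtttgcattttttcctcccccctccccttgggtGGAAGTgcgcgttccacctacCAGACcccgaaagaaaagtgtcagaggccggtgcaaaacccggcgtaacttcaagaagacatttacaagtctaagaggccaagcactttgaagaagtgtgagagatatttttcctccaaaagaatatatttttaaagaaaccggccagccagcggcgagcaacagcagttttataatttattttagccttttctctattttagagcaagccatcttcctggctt
Ccnd3, chr17:47504801-47505100, plus strand: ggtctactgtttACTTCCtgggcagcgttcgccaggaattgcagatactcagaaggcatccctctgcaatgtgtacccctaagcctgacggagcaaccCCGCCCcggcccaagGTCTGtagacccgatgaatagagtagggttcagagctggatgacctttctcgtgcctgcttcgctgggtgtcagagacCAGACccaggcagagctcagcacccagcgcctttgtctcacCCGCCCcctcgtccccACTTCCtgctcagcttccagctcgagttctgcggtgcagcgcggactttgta
Tcf7, chr11:52282546-52282845, minus strand: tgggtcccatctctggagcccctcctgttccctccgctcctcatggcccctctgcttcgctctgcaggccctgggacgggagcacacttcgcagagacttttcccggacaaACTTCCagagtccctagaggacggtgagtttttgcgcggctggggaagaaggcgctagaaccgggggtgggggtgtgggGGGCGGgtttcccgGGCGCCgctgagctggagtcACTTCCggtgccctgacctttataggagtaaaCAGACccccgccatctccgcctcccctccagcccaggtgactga
Irf4, chr13:30748983-30749282, plus strand: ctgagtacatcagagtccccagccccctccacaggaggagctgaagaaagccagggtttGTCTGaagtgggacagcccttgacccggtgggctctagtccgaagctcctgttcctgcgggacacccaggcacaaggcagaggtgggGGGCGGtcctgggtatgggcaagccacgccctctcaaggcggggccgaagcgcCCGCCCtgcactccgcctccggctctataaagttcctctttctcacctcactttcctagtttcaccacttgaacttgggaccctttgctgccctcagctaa
Il6st, chr13:112463820-112464119, plus strand: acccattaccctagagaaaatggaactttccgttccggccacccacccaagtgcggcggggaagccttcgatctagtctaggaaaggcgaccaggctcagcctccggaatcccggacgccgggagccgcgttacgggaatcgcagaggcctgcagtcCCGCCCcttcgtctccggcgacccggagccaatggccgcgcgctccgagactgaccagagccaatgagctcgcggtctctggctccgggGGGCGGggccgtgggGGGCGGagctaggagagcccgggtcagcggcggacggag

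The Prkcq promoter held CAGAC at 186 bases before the start, and Bcl11b held it at 174 bases before. Ccnd3 held both orientations, GTCTG 137 bases and CAGAC 59 bases before the start, with an ETS core at 2 bases before. Irf4 held GTCTG at 191 bases before, Tcf7 held CAGAC 7 bases past the printed start, and these letters are not in the Il6st window. A second listed Tcf7 start under the same region, not printed, has a window (chr11:52282965-52283264) without the SMAD core. The SMAD core was about as frequent outside chains as under them. It was in 48.3% of 424 promoters of 355 genes with a start under a chain region, in 47.4% of 4867 promoters under other WT-only regions and in 48.4% of all 20085 promoters of that length.

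For the other letters searched, on both strands, the shares in chain promoters lay nearer those of other WT-only promoters for some motifs and nearer those of all promoters for others. GC boxes were in 69.8% of chain promoters, 72.9% of the other WT-only promoters and 47.0% of all promoters. GGCGCC was in 24.3%, 26.4% and 15.8% of the same 3 sets, and the ETS core in 29.5%, 31.8% and 24.99%. The RUNX core TGTGGT was in 13.2%, 10.4% and 14.8%, and the AP-1 element TGANTCA in 5.19%, 3.90% and 7.06%. The cyclic AMP response element TGACGTCA was in 2.83%, 4.52% and 2.30%, and the palindromic SMAD element GTCTAGAC was in 0.236%, 0.411% and 0.239%. None of these motifs contains another, though GGGCGG and GGCGCC can share letters where they meet. Chain promoters had a median GC content of 63.3%, other WT-only promoters 64%, and all promoters 57%. A match describes letters in a window and is not a binding site; the regions away from starts were not searched.

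MicroRNA genes were the other sequences held by the chains. Of 23 hairpins in the spans of 19 chains, 12 lay in a chain region. The 5 mature microRNAs below come from 3 chains and were picked among those whose hairpins lie in, or near, a chain region. Position alone did not select them: other hairpins in chain regions are not printed, and Mir8119, at 343 bp, lies closer to one than Mir21a. The seed (bases 2 to 8) is in capitals. RefSeq gave sequences for 34 mature microRNAs of the chains.
miR-21a-5p, chr11:86584120-86584141, minus strand: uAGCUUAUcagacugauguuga
miR-142a-5p, chr11:87756867-87756887, plus strand: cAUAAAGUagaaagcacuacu
miR-142a-3p, chr11:87756903-87756925, plus strand: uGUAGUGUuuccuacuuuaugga
miR-132-3p, chr11:75173723-75173744, plus strand: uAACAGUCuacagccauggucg
miR-212-3p, chr11:75173443-75173464, plus strand: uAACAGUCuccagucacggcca

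MiR-21a, which is abundant in activated T cells, has its hairpin 1181 bp from the closest chain region, in the chain of 10 regions at Vmp1. MiR-142a, known as a blood cell microRNA, lies inside a region of a chain of 7 at Rnf43. MiR-132-3p and miR-212-3p share the seed AACAGUC, and both hairpins lie inside regions of 1 chain of 6 at Dph1. No microRNA level was measured.

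Most chains held few regions. There were 387 chains of 4 to 5 regions with 1674 regions, 162 chains of 6 to 9 with 1100, and 20 chains of 10 or more with 250. The median chain held 5 regions in a span of 21.4 kb, and spans ran from 4.32 to 109 kb. Together the spans made up 13.4 Mb, or 0.557% of the annotated autosomal length of 2398 Mb, and the regions covered 19.7% of those spans. Within chains the median gap was 3.37 kb, with the middle range from 1.34 to 6.99 kb. All autosomal WT-only neighbours lay a median of 27.1 kb apart, and 7245 regions (46.3%) had no neighbour within reach.

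**Figure D1:**
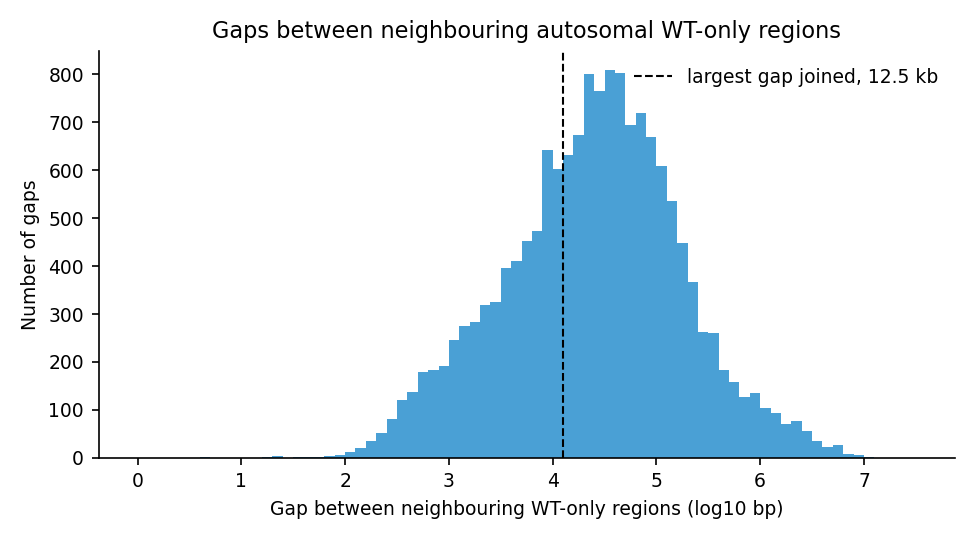
Number of gaps (vertical axis) between neighbouring autosomal WT-only regions against the gap length in bp on a log10 axis; the dashed line marks the limit for joining. The bin that holds the limit has 602 gaps and its neighbours 643 and 632, and the median gap is 27.1 kb.

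On both sides of the limit gaps were about as many. There were 121 gaps in the 0.5 kb below the limit, which were joined, and 119 in the 0.5 kb above it, which were not. On the count of regions, 261 chains held 4, among them those at Skil and Rora, and 606 held 3 and were not counted. Among the latter were a run of 3 at Lef1, a T cell transcription factor gene (chr3:131105640-131118543), and a run of 3 at Pmepa1, a known TGF-β target (chr2:173262922-173279708).

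Ets1, which encodes an ETS family transcription factor needed for T cell development and survival, had the chain with the most regions: 21 in 73.9 kb (chr9:32692556-32766422). WT replicate 1 had 32 peaks over 28.6 kb there, WT replicate 2 had 28 peaks over 19.5 kb, and neither KO list had a peak. Of the 21 regions, 19 lay inside the gene, 2 outside it, and 0 within 1 kb of a gene end. The widest spanned 3517 bp (chr9:32699390-32702906), and the median gap was 1.51 kb. Regions of both WT libraries were spread along the whole chain. A second Ets1-side chain of 5 regions lay 153 kb from the gene (chr9:32910481-32942462), and met the lncRNA gene Gm27162.

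Bach2, a repressor that restrains effector differentiation, had 4 chains with 30 regions in its body. The Bach2 chain with the most regions had 15 in 84.2 kb (chr4:32319457-32403625), with 22 WT replicate 1 peaks, 20 WT replicate 2 peaks, 0 KO replicate 1 peaks and 1 KO replicate 2 peak. Another Bach2 chain, of 5 regions (chr4:32238322-32258928), held 1 peak of each KO list. In Bach2 or within 10 kb of it, each KO list had 3 peaks. Bcl11b, which is required for T lineage commitment, had 13 regions in 44.9 kb (chr12:107961732-108006617). Its chain held 20 and 17 WT peaks over 14.6 and 9.17 kb and no KO peak, and its widest region, 2668 bp, covered the printed promoter. Foxp1, a factor of T cell quiescence, had 28 chain regions in its body, in chains of at most 7, and 3 of its chains held peaks of both KO lists. The WT libraries had peaks along each of these chains, and the KO lists had few or none.

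The chain at Nfkb1, the gene of the NF-κB p50 precursor, had 12 regions in 69.5 kb (chr3:135662416-135731932). Of these, 7 lay in the gene or within 10 kb. Both WT libraries had 14 peaks there, over 13.3 kb in replicate 1 and 7.96 kb in replicate 2, and no KO peak was called. The chain at Tcf7, which encodes the T cell factor TCF1, had 8 regions in 39.7 kb (chr11:52260694-52300353), 5 of them in the gene or within 10 kb. It had 16 and 9 WT peaks and no KO peak. Only 13.455 kb from that chain began a chain of 11 regions at Vdac1, a mitochondrial channel gene (chr11:52313809-52361396), with 14 and 12 WT peaks and no KO peak. In the Vdac1 chain 10 of 11 regions lay outside genes, between the Tcf7 chain and the Vdac1 gene. The 2 chains were kept apart by 1 gap slightly over the limit.

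The chain at Prkcq, the gene of protein kinase C theta of the T cell receptor pathway, had 15 regions in 72.0 kb (chr2:11146644-11218607). Of these, 11 lay in the gene or within 10 kb. The chain had 17 peaks over 12.7 kb in WT replicate 1, 15 peaks over 7.56 kb in WT replicate 2, 1 peak in KO replicate 1 and 0 in KO replicate 2. Prkch, protein kinase C eta, had 11 regions in 62.8 kb (chr12:73693285-73756130), all inside the gene, with 15 and 11 WT peaks and no KO peak; 23 chain regions lay in or near Prkch across its chains. Sla, an adapter that dampens receptor signalling, had 11 regions in 31.8 kb (chr15:66787588-66819363), with 17 peaks in each WT library, 1 in KO replicate 1 and 0 in KO replicate 2. Sla lies within the thyroglobulin gene Tg, so a position there belongs to both genes. Cd28, the main co-stimulatory receptor, had 9 regions in 34.5 kb (chr1:60744312-60778789), with 14 and 12 WT peaks and no KO peak. The chain at Stk17b, a kinase gene of lymphocytes, had 12 regions in 40.7 kb (chr1:53757906-53798622), with 16 and 13 WT peaks and no KO peak. Of these regions, 10 lay in the gene or within 10 kb.

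The chain at Ccr7, the gene of the chemokine receptor for entry into lymph nodes, had 13 regions in 51.3 kb (chr11:99129217-99180555). Of these, 8 lay in the gene or within 10 kb. WT replicate 1 had 17 peaks over 14.0 kb, WT replicate 2 had 15 over 10.7 kb, and no KO peak was called. The chain at Ubac2, an endoplasmic reticulum protein gene, had 17 regions in 70.2 kb (chr14:121895571-121965788) and runs over Gpr183 and Gpr18, both receptor genes of lymphocytes, whose starts it covers. It held 21 WT replicate 1 peaks over 15.1 kb, 17 WT replicate 2 peaks over 10.9 kb, 1 KO replicate 1 peak and 0 KO replicate 2 peaks. The chain at Sema4d, a semaphorin gene of lymphocytes, had 10 regions in 74.4 kb (chr13:51742084-51816434), with 12 and 11 WT peaks and no KO peak. Of these regions, 8 lay in the gene or within 10 kb.

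The chain at Mcl1, an anti-apoptotic BCL2 family gene, had 9 regions in 37.1 kb (chr3:95638098-95675239), with 9 and 12 WT peaks. Of these regions, 8 lay outside genes, and 6 lay in Mcl1 or within 10 kb of it. Ccnd3, the cyclin D3 gene, had 10 regions in 32.3 kb (chr17:47501913-47534237), with 14 and 11 WT peaks. The chain at Btg1, an anti-proliferative gene of resting lymphocytes, had 9 regions in 28.9 kb (chr10:96604690-96633540), with 9 and 11 WT peaks. Of these regions, 7 lay in the gene or within 10 kb. Inpp4b, a phosphoinositide phosphatase gene, had 12 regions in 55.3 kb, all inside the gene (chr8:81730174-81785435), and its widest region reached 5112 bp. No KO peak lay in the spans of these 4 chains. The Vmp1 chain was the shortest in span of the 25 with the most regions, 10 in 20.1 kb (chr11:86575828-86595892), with 10 peaks in each WT library and no KO peak. Ago2 (the Argonaute 2 gene), Pitpnc1 (a phosphatidylinositol transfer protein gene) and Akap13 (an anchoring protein gene) had 10, 10 and 9 regions. The chain at Lbh had 11, 7 of them in the gene or within 10 kb.

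**Figure D2:**
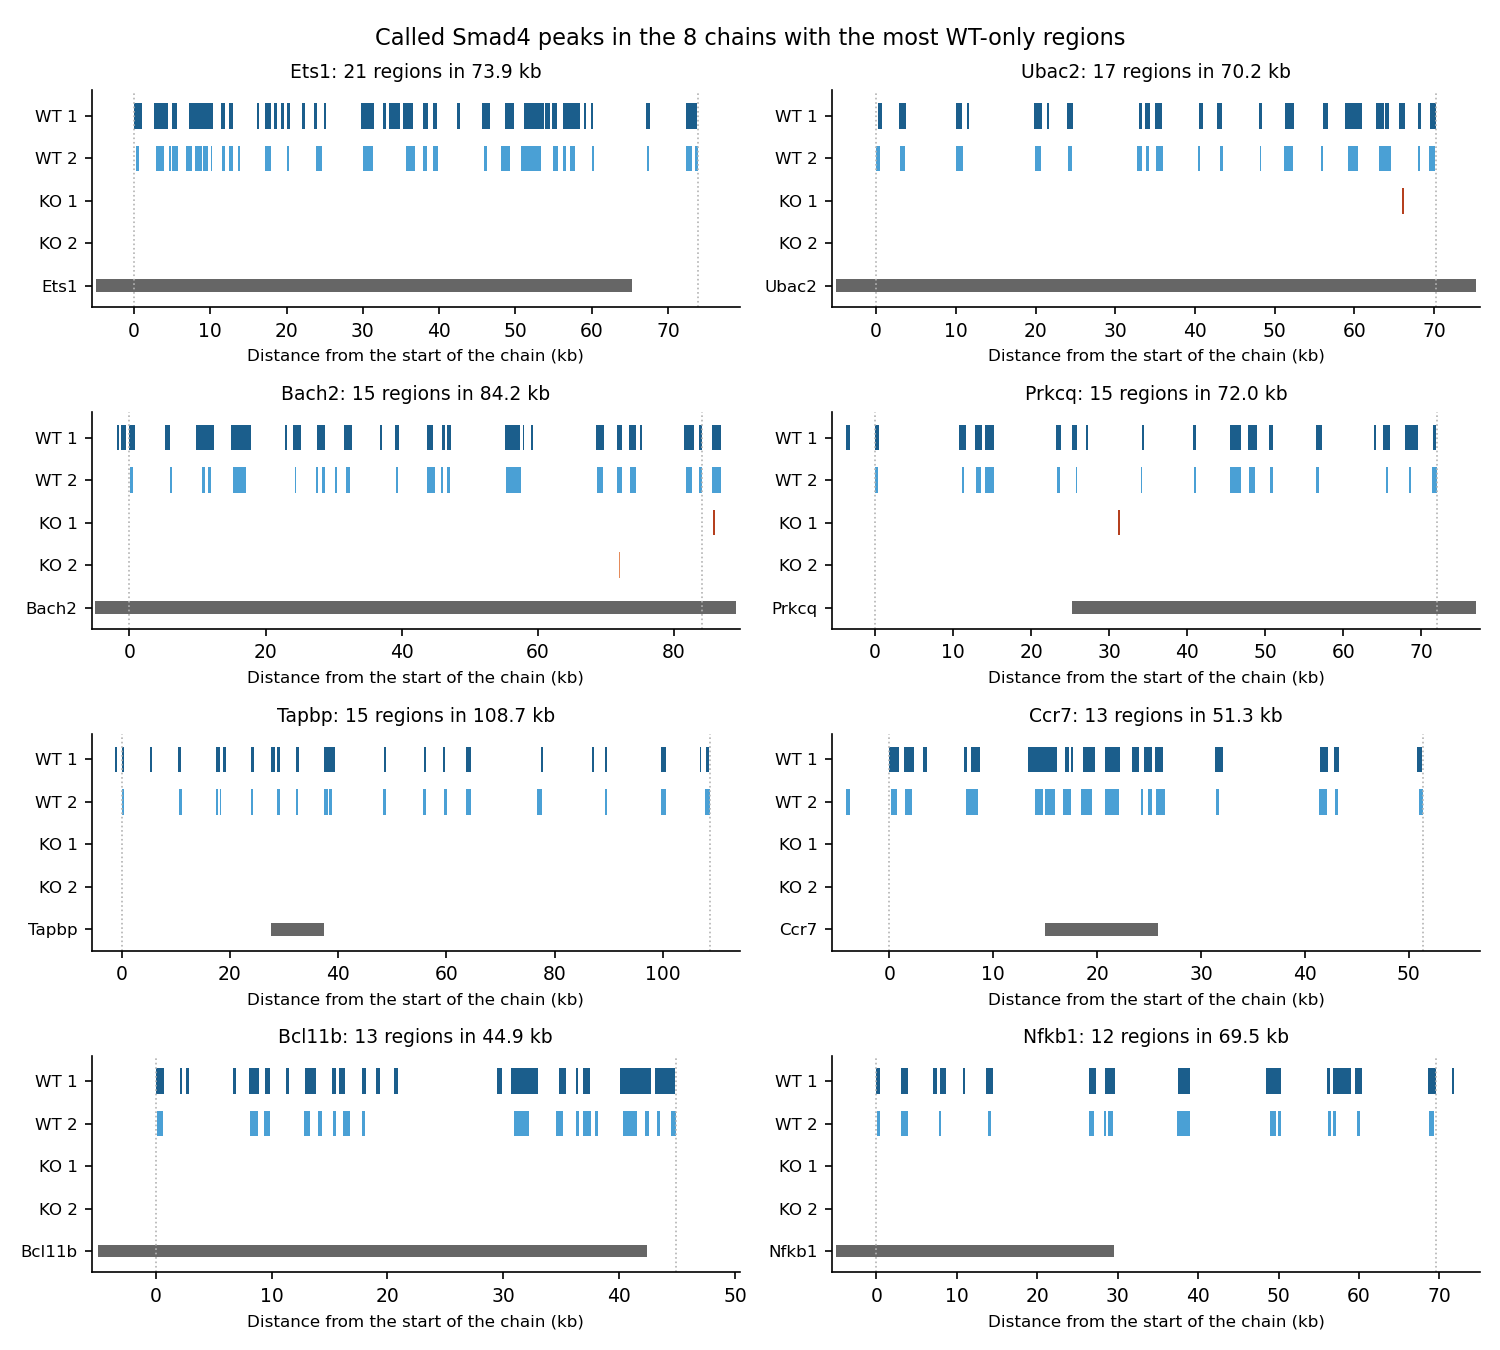
Called peaks (bars, to scale) in the 8 chains with the most WT-only regions, from 5 kb before to 5 kb past each chain, by distance in kb from the chain start; rows are WT 1, WT 2, KO 1, KO 2 and the body of the named gene (grey), and dotted lines mark the chain ends. Peaks of both WT libraries run along each chain, from 21 regions at Ets1 to 12 at Nfkb1, while within the chains KO peaks are seen singly at Ubac2, Bach2 and Prkcq.

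The longest span, 109 kb, was that of a chain of 15 regions in the major histocompatibility complex (chr17:33891867-34000539), over 11 protein-coding genes that include Tapbp, the tapasin gene of peptide loading, and H2-K1, a class I molecule gene. It held 20 and 17 WT peaks and no KO peak, and 7 of its 15 regions lay at gene ends. Only 28 of the 295 regions in the 25 chains with the most regions lay at gene ends in all. Of those 25 chains, 21 had no KO peak, 3 had a KO replicate 1 peak alone and 1 a KO replicate 2 peak alone. Length under peaks was larger in WT replicate 1 than in WT replicate 2 in all 25 of them.

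Some chains lay away from protein-coding genes. Of 569 chains, 84 met none, and 39 of those met a lncRNA gene. The one with the most regions, 11 in 66.0 kb (chr7:90002661-90068682), lay 21.7 kb from Eed, which encodes a Polycomb subunit, and ran over the lncRNA gene E230029C05Rik; it had 13 and 11 WT peaks and no KO peak. A chain of 9 lay 20.1 kb from Id3, an inhibitor of E protein factors (chr4:136081642-136123718), and one of 9 lay 17.7 kb from Lrrc74a. A chain of 8 lay 22.5 kb past Icos, a co-stimulatory receptor gene (chr1:61022802-61059938), with 9 and 10 WT peaks and 1 peak in each KO list. In the gene desert beside Bcl11b, a chain of 8 (chr12:107118410-107160493) lay 749.91 kb from the near end of that gene and 6.27 kb from the predicted gene Gm52008, with 16 and 12 WT peaks and no KO peak. The desert past Bcl11b is known for an enhancer region of that gene; no contact was measured here.

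The T cell receptor alpha locus held a chain too. It had 7 regions in 52.9 kb over the joining segments and the constant region Trac, and ended 1.37 kb from Dad1 (chr14:54181269-54234119), a stretch known to hold the locus enhancer. WT replicate 1 had 13 peaks there, WT replicate 2 had 14, KO replicate 1 had 2 and KO replicate 2 had 1. A chain of 7 at Morrbid, a lncRNA gene, 203 kb from the pro-apoptotic gene Bcl2l11, had 21 and 12 WT peaks and 2 and 3 KO peaks. These were among 15 chains whose span held peaks of both KO lists, in the gaps between the WT-only regions. Il2ra, the IL-2 receptor alpha gene, gave another, with 13 peaks in each WT library, 3 in KO replicate 1 and 1 in KO replicate 2.

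KO peaks in the spans were few in number. No KO peak lay in 528 of 569 spans (92.8%), 36 spans held a KO replicate 1 peak and 20 a KO replicate 2 peak. The spans held 43 of 552 autosomal KO replicate 1 peaks (7.79%) and 23 of 417 KO replicate 2 peaks (5.52%). By length the spans were 0.557% of the annotated autosomes, so KO peaks were more frequent per length inside them than outside. Regions called in 1 WT list alone had shares of 6.18% for replicate 1 and 7.19% for replicate 2. The spans held 14.1% of the autosomal WT replicate 1 peaks and 17.5% of the WT replicate 2 peaks, but the rule itself placed WT peaks there. Length under peaks in the spans was 2.70 Mb in WT replicate 1, 2.13 Mb in WT replicate 2, 15.6 kb in KO replicate 1 and 8.30 kb in KO replicate 2. The rule bars KO peaks from the regions but not from the gaps between them, and the WT lists were longer from the start.

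Within the chains, WT replicate 1 had the larger length under peaks in 500 of the 569, and the median ratio of replicate 2 to replicate 1 was 0.795, with the middle range from 0.698 to 0.911. The spans also held regions called in 1 WT list alone, 635 of 10275 for replicate 1 (6.18%) and 196 of 2725 for replicate 2 (7.19%). Every chain region has a peak of both WT lists by the rule, so these values do not measure agreement between the libraries.

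**Figure D3:**
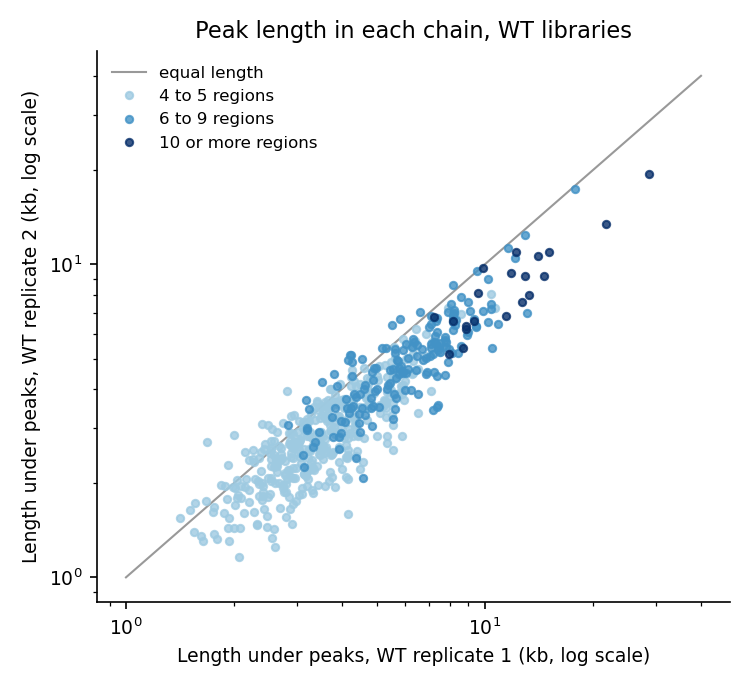
Length under called peaks in each of the 569 chains, WT replicate 2 against WT replicate 1, in kb on log axes, coloured by the number of regions; the grey line marks equal length. In 500 of the 569 chains the point lies on the side of WT replicate 1, and the chain at Ets1 has 28.6 and 19.5 kb.

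Where a region lay went with the number of regions in its chain. Of the chain regions, 15.4% (exact 95% interval 14.1 to 16.7%, counting error only) had their centre at a gene end, meaning 1 kb or less from the first or last base of a protein-coding gene. Among other autosomal WT-only regions 38.02% did (37.2 to 38.9%). Inside genes lay 52.2% of chain regions and 35.0% of the others, and outside genes 32.3% and 27.0%. The share at gene ends was 45.3% for regions that stood alone, 31.1% for pairs, 22.6% for runs of 3, 17.2% for chains of 4 to 5, 13.9% for 6 to 9 and 10% for 10 or more. The share inside genes went the other way, from 30.7% for lone regions to 64.8% in chains of 10 or more. Neighbouring regions were not independent, and the difference was not tested.

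**Figure D4:**
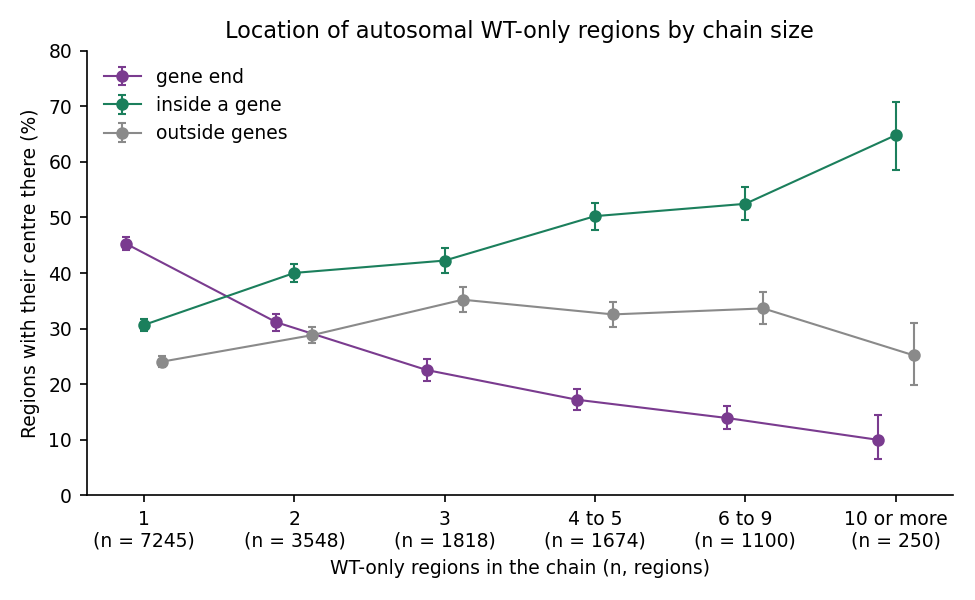
Share of autosomal WT-only regions (%) with their centre at a gene end, inside a gene or outside genes, against the number of regions in their chain; bars are exact 95% binomial intervals and n is the number of regions. The share at gene ends goes from 45.3% for lone regions to 10% in chains of 10 or more, and the share inside genes from 30.7% to 64.8%.

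Of the 569 chains, 298 (52.4%) had at least 1 region at a gene end, beside 45.3% of lone regions, 50.1% of pairs and 49.5% of runs of 3. The share was 49.9% for chains of 4 to 5, 56.8% for 6 to 9 and 13 of 20 (65%) for 10 or more. A chain with more regions has more chances to hold one at a gene end, so these shares are not comparable with those per region. Starts gave the same order as gene ends. Without chromosome 18, for which starts were not used here, 397 of 2971 chain regions (13.4%) covered a listed start and 33.7% of the other regions did. Where a chain had a gene-end region, that region was the widest of the chain in 155 of 298 chains (52.0%), while 28.7% of the regions of those chains lay at gene ends.

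Regions in chains were somewhat wider. The median width was 698.5 bp for chain regions and 636 bp for the others. It was 626 bp for lone regions, 684 bp in chains of 4 to 5, 716 bp in chains of 6 to 9 and 811.5 bp in chains of 10 or more. Within each location class the chain regions were the wider ones: 871.5 against 744 bp at gene ends, 686 against 582 bp inside genes, and 659 against 571.5 bp outside genes. The width of peaks in chain regions had a median of 634 bp in WT replicate 1 and 512 bp in WT replicate 2, against 570 and 486 bp elsewhere. Widths stem from the same peak calls as the rule and are given as a description.

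Most chains met a single protein-coding gene. The span met 1 protein-coding gene in 351 chains, 2 in 93 and 3 or more in 41. In 183 chains (32.2%) all region centres lay in the body of 1 gene. Those were 164 genes with a median length of 113 kb, where all autosomal protein-coding genes had a median of 17.6 kb. Only a gene about as long as a chain can hold all its centres, so greater length follows in part from this selection. Ptprc, which encodes the leukocyte phosphatase CD45, had 12 chain regions in its body, Jak1 had 11, and Cdk6, a cell cycle kinase gene, had 10. In all, 125 genes had 5 or more chain regions in the body and 22 had 10 or more.

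The lists of genes below were read against 817 of 20560 autosomal protein-coding genes (3.97%) that had a chain region in the gene or within 10 kb. By length that share was 3.16% for genes under 10 kb, 4.03% for 10 to 50 kb, 4.87% for 50 to 100 kb and 5.41% for 100 kb or more. Of the autosomal genes, 9424 had a WT-only region of any kind. No list was tested, and the lists were chosen with results of these data known.

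The IL-6 and STAT3 list had the largest share, 9 of 13 genes, beside the 3.97%. Il6ra, the IL-6 receptor alpha chain, had 9 regions in a chain of 27.0 kb (chr3:89861107-89888066), with 10 peaks in each WT library and no KO peak. Il6st, which encodes the shared signalling chain gp130, had a chain of 8 in 47.5 kb (chr13:112417602-112465052) that lay mostly before the gene. Of its regions, only 2 lay in the gene or within 10 kb. The Il6st chain had 10 and 8 WT peaks over 11.6 and 11.3 kb and no KO peak. Jak1, the kinase bound to gp130, had 2 chains of 6 in or at its body, with 13 and 14 WT peaks in all and no KO peak. Jak2 (a kinase), Bcl6 (a repressor) and the feedback inhibitors Socs1, Socs3 and Cish also had chain regions, 2 to 5 each. Stat3 itself, the factor that IL-6 activates, had none, nor did Tyk2, Pim1 and Bcl3. All 13 genes had at least 1 WT-only region.

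The TGF-β and SMAD list had chain regions at 4 of 27 genes, while 23 had some WT-only region; its genes had a median length of 69.0 kb. Smad3, a receptor-activated SMAD gene, had 10 regions in 2 chains of 6 and 4. The chain of 6 (chr9:63703330-63722401) had 6 peaks in each WT library and no KO peak, and the chain of 4 had 6 and 4 WT peaks and no KO peak. Smad7, the inhibitory SMAD gene and a classical SMAD target, had a chain of 8 in 51.5 kb (chr18:75341656-75393116). Of its regions, 6 lay in the gene or within 10 kb. The Smad7 span held 15 and 10 WT peaks over 17.9 and 17.4 kb and 1 peak in each KO list. Its 8 WT-only regions summed to 11.3 kb, so part of each WT peak length lay outside them. Ski had a chain of 5 in 7.74 kb (chr4:155216199-155223937), with 6 peaks in each WT library and no KO peak, and Skil a chain of 4 (chr3:31098041-31109688), with 4 peaks in each and none in the KO. Outside those chains, each KO list had 1 peak in or within 10 kb of Smad3 and 1 of Skil. The receptors Tgfbr1 and Tgfbr2, the ligand Tgfb1 and the SMAD genes Smad1, Smad2, Smad5 and Smad6 had no chain region. Smad4 had 2 WT-only regions, neither in a chain.

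Of 16 Th17 genes, 4 had chain regions and 13 had some WT-only region. Irf4, a factor needed for Th17 differentiation, had a chain of 8 in 47.4 kb (chr13:30720092-30767528). Of its regions, 5 lay in the gene or within 10 kb. The Irf4 chain had 11 peaks in each WT library over 9.09 and 7.12 kb and no KO peak. Il21, a Th17 and follicular helper cytokine gene, had a chain of 6 (chr3:37203881-37233557), 3 of them in the gene or within 10 kb, with 8 and 6 WT peaks. Rora, which encodes a nuclear receptor of Th17 cells, had a chain of 4, with 4 peaks in each WT library. No KO peak lay in these 3 chains. Il17a and Il17f, the cytokine genes that define Th17 cells, had 1 WT-only region each and no chain.

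T cell identity genes had chain regions at 11 of 19, and all 19 had a WT-only region. Beyond Ets1, Bcl11b, Cd28 and Tcf7, they included Lck, a kinase of the receptor pathway, the adapter Lat, the CD3 chains Cd3d and Cd3g, and the factors Runx1 and Satb1. Cd4 had 2 WT-only regions and none in a chain. Activation genes had 7 of 20, with at most 7 regions at Nfkb1, and regulatory T cell genes 5 of 11, with 6 at Il2ra. Th1 genes had 4 of 12 and Th2 genes 2 of 10, with 1 region at Ifng and 4 at Nfil3.

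Markers of other cell types were also read, beside the label of CD4+ T cells. Of 10 B cell genes 1 had chain regions: Cd79a, with 5 within 10 kb and 0 in its body, in a chain of 6 that also meets Rps19 and Arhgef1. Cish, Tnfrsf18, Fosb, Ifng and Il4ra, counted in other lists above, likewise had chain regions within 10 kb and 0 in the body. None of 12 myeloid, 10 hepatocyte or 9 neuronal genes had a chain region, and 2, 0 and 4 of them had any WT-only region. The share over all autosomal protein-coding genes was 3.97%. Lists this short can hold 0 such genes at that share, so these counts do not set them apart from other genes. The median length of the genes was 14.8 kb for the B cell list, 3.91 kb for the myeloid list and 52.1 kb for the neuronal list, against 30.9 kb for T cell identity.

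**Figure D5:**
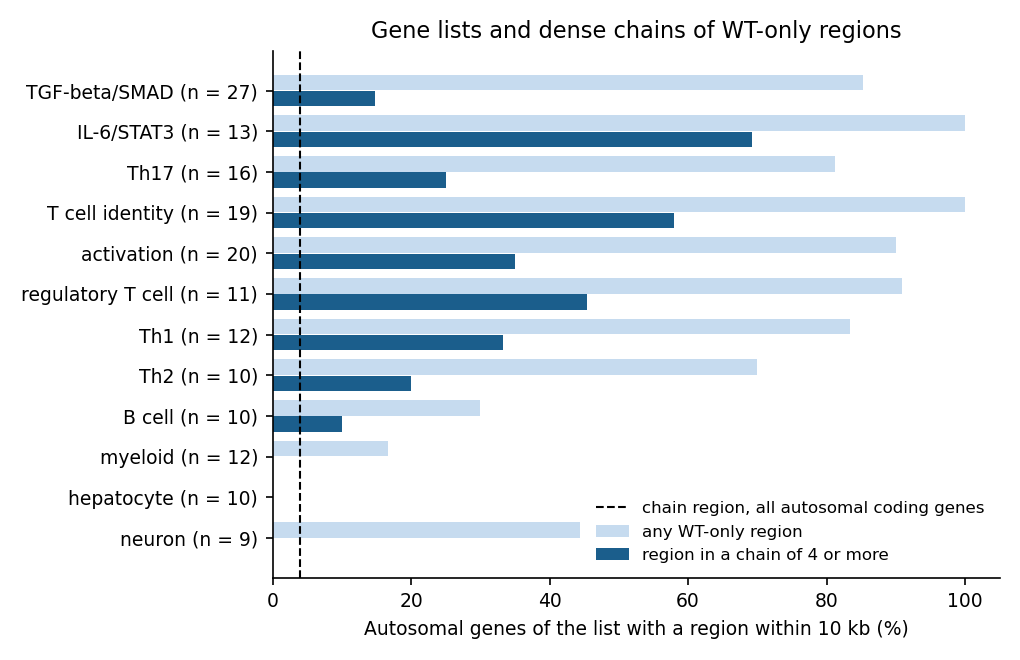
Share of the autosomal genes of each list (%) with any WT-only region (light bars) or a region in a chain of 4 or more (dark bars) in the gene or within 10 kb; n is the number of genes, and the dashed line is the share for all autosomal protein-coding genes, 3.97%. The IL-6/STAT3 list has 9 of 13 genes, the T cell identity list 11 of 19, and the myeloid, hepatocyte and neuron lists 0.

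Chains also lay close to each other. Of 550 pairs of neighbouring chains on the same chromosome, 31 were at most 25 kb apart and 86 at most 100 kb. The closest pair, a chain of 4 at Tns4 and the chain of 13 at Ccr7, was 12.646 kb apart. Chromosome 11 had the most chains, 58, with 24.6% of its WT-only regions in them, and chromosome 18 the fewest, 10, with 12.7%.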

How the data were processed

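Called peak positions of 2 WT and 2 KO Smad4 ChIP-seq libraries were used. The authors deposited 1 list per sample, holding chromosome, start and end, and no other value. Per the submitters' processing notes, the tools included HOMER 4.8.3, Bowtie and Trim Galore and the build was mm10. How peaks were thresholded, and whether inputs were used, is not given in the sources used here. Regions and chains were built as described above with Python 3.11.15, numpy 2.4.6 and pandas 2.3.3, and the chaining was tested on simulated data. Intervals are exact Clopper-Pearson (SciPy 1.17.1) and cover counting error only. Figures used matplotlib 3.10.9. Gene bounds came from RefSeq on GRCm38.p6; of 21900 protein-coding genes, 21779 were used, leaving out scaffold genes with positions under 3 Mb. A gene's regions are those with their centre in its body or within 10 kb. A chain named for a gene can also hold regions further away. Peak counts and lengths under peaks given for a chain are those of its whole span, with peaks outside the WT-only regions included.

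The members and lists were chosen with earlier results of these data known. Named genes were those of the 25 chains with the most regions (ties by summed width), up to 4 per list by number of regions, and Smad4, Ski, Skil, Cd4, Il17a and Il17f; others were chosen after their values were seen. A few list genes enter the counts but are not reported here by name. Of 12 chains of 9 regions, 5 fell in the 25. The 168 list genes included 164 on autosomes. Alternatives were another gap, chain length, overlap, width, gene-end or territory limit, and leaving out each list.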

Additional observations from a re-analysis of the deposited data

How the results depend on the processing

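Counts followed the limits of the rule. With a gap of 6 kb there were 1347 regions in 283 chains, 14.0% of them at gene ends and at 355 genes; with 25 kb, 5693 in 945, 19.8% and 1996 genes. Chains of at least 3 gave 4842 in 1175, 18.1% and 1554 genes, and of at least 6 gave 1350 in 182, 13.2% and 301 genes. WT peaks that overlap by 50% of both left 1895 regions. WT peak centres within 100 bp left 1381 in 290, 12.2% at gene ends, 368 genes and at most 13 regions in a chain. The wider 50% of the regions left 679 in 140 chains at 197 genes. Gene ends of 5 kb took 33.9% of chain regions. Leaving out 1 library gave 3127 to 8889 regions, 585 to 1426 chains, 14.5 to 16.8% at gene ends, 830 to 1964 genes and 21 to 32 regions in the largest chain. Without WT replicate 2 there were 8889 regions, and without WT replicate 1 there were 4555. Ets1 had the chain with the most regions under 12 of 13 settings, though a minimum of 3 or 6 regions cannot change which chain that is. With 25 kb it was Bach2, with 27 regions. Of the 25 chains with the most regions, 9 to 25 stayed among the first 25, 9 with the wider 50%. No paired analysis was made, because no test was run on the counts. Without scores or read depth, a region missed in a KO list at low depth and a region without binding cannot be told apart.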

Other observations

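Chains outside the rule were few. The X chromosome, which the rule leaves out and whose copy number differs between the sexes, had 240 WT-only regions, and 8 of them (3.33%) formed 2 chains of 4. One ran over Bcor, a BCL6 co-repressor gene, in 15.1 kb, and one lay at the predicted gene Gm4779 in 7.59 kb. The Y chromosome and unplaced scaffolds had 7 WT-only regions. Merged autosomal KO peaks, 775 in all, gave 3 chains by the same limits, with 13 regions (1.68%) and at most 5 in a chain. A shorter list has fewer close neighbours at a fixed gap, so this share is not comparable with the 19.3% of 15635 WT-only regions.

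The long noncoding gene Malat1 lay in a chain of 5 regions (chr19:5801512-5823770), and a chain of 7 and a chain of 6 lay 152 and 78.9 kb from Tnfaip3, the gene of the NF-κB inhibitor A20, with no protein-coding gene in their spans.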
